A study of Homo sapiens with 14 samples.

Results

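CHAC1 and 9 genes of glutathione and thiol metabolism were followed across the 14 libraries of an RNA-seq study in a human colon cancer cell line. The 10 genes are CHAC1, GCLC, GCLM, GSS, GSR, GPX4, CTH, CBS, TXNRD1 and HMOX1, out of 78686 gene identifiers, and they were found by symbol. CHAC1 was chosen by its measured expected counts, scaled by depth, as the gene with the largest increase with Nutlin in these libraries, so its values in the Nutlin set are given as a description with no test. The other 9 genes were chosen for their function, and were compared to see whether the genes that make, recycle and use glutathione moved with it. CBS had too few reads to be tested, so 9 of the 10 genes entered each fit and 8 of them could be tested for Nutlin.

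The cells were HCT116 osTIR1(F74G) SAF-A-mAID-Halo, a modified HCT116 line. The tag on SAF-A, a nuclear RNA-binding protein encoded by HNRNPU, lets the small molecule 5-Ph-IAA trigger its breakdown through the osTIR1(F74G) ubiquitin ligase adaptor. All 14 libraries, the controls included, came from cells that carried both the tag and the adaptor. The time-course set held vehicle (DMSO) cells, cells given 5-Ph-IAA for 3 h and cells given it for 12 h. The Nutlin set held vehicle (DMSO) cells, Nutlin cells, cells given 5-Ph-IAA, and cells given both 5-Ph-IAA and Nutlin, the last 3 labelled 3 h. Nutlin blocks the binding of MDM2 to p53 and so stabilises p53. The labels do not say which of the 2 agents the 3 h refers to in the cells given both, and they give no dose for either agent. Each of the 7 groups had 2 libraries of total RNA depleted of ribosomal RNA. The labels do not say whether these came from separate cultures, so p-values measure the spread between libraries, which may be technical.

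Glutathione is the main small thiol of the cell. It is built from glutamate, cysteine and glycine by glutamate-cysteine ligase, made of the catalytic subunit GCLC and the modifier subunit GCLM, and then by glutathione synthetase, GSS. CHAC1 is a gamma-glutamyl cyclotransferase that cleaves glutathione in the cytosol, and is known as a target of the transcription factors ATF4 and DDIT3 (CHOP) in the integrated stress response. GSR returns oxidised glutathione to its reduced form, GPX4 uses it to reduce lipid peroxides, and CBS and CTH make cysteine from homocysteine. TXNRD1 runs the parallel thioredoxin system, and HMOX1 breaks down haem. GCLC, GCLM, TXNRD1 and HMOX1 are textbook targets of NRF2, which binds the antioxidant response element.

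The libraries held between 12646787 and 35140464 expected counts, except the second 12 h library, which held 3535163. In the time-course set 19049 genes were tested, and in the Nutlin set 17251. The 5 epithelial markers EPCAM, KRT8, KRT18, KRT19 and CDH1 were present in every library, with a summed level of 3500 to 5504 TPM (a transcript level scaled for gene length and depth). Of the leukocyte markers, CD68 stood at 0 to 5.01 TPM, CD3E was at 0 in all 14 libraries and PTPRC was at or below 0.07 TPM. Fibroblast markers summed to 0.41 to 2.01 TPM and endothelial markers to 0.01 to 0.23 TPM. HNRNPU RNA, the transcript of the tagged protein, does not check the labels because 5-Ph-IAA acts on the protein.

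Promoter windows are shown first, for the tested members, and for SLC3A2 and SLC1A4 of the cysteine supply genes, where they held a match to a response element of ATF4 or NRF2. Of the cysteine supply genes, only SLC7A11, SLC3A2 and SLC1A4 were looked up, because they rose with Nutlin. SLC7A11 had no promoter entry, and the promoters of the rest of that list were not searched. RefSeq promoters on GRCh38.p14, which cover 250 bases before to 50 bases after a start, were present for 7 of the 10 members. GSS, GSR and HMOX1 had no entry and could not be searched. The C/EBP-ATF response element was searched as TGATGNAA and the antioxidant response element core as TGACNNNGC, on both strands. In the windows below, printed 5′ to 3′ on the gene's strand, the capitals mark the match.
CHAC1, chr15:40953251-40953280, + strand: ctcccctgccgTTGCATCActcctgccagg
GCLM, chr1:93909445-93909474, - strand: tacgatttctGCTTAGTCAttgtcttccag
TXNRD1, chr12:104215670-104215699, + strand: acacgggctaTGACTTCGCtgttgtcaccg
TXNRD1, chr12:104215761-104215790, + strand: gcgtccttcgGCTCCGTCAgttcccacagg
TXNRD1, chr12:104286920-104286949, + strand: gtggatttctGCTTTGTCAttctgactctg
SLC3A2, chr11:62881652-62881681, + strand: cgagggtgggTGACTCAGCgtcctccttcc
SLC3A2, chr11:62881719-62881748, + strand: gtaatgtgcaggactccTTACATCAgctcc
SLC1A4, chr2:64989381-64989410, + strand: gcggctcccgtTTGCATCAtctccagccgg

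Of the 7 members with a promoter entry, CHAC1 was the 1 that held TGATGNAA, read on the opposite strand and beginning 209 bases before the start. SLC3A2 and SLC1A4, the amino acid transporter genes described with the cysteine supply genes, held it at 37 bases after and 7 bases before a start. Each held it in 1 promoter entry and not in its other entries. DDIT3 and DDIT4, the genes of the ATF4 list with the largest rise with Nutlin, held no TGATGNAA in their promoter entries. TGACNNNGC was found in GCLM, at 3 places in 2 TXNRD1 promoters, and in the untested CBS, whose window is not shown, as well as in SLC3A2. GCLC, CTH and GPX4 held neither. For comparison, 3.62% of 35116 RefSeq promoters held TGATGNAA and 13.3% held TGACNNNGC, so a single match to the latter is common. No member promoter held TGACGTCA, a cyclic AMP response element found in 1.85% of all promoters. The p53 response element was searched as 2 copies of RRRCWWGYYY with up to 13 bases between them and no mismatch. Here R is A or G, W is A or T and Y is C or T. No member promoter held it. Only 0.028% of all promoters did, so a missing match was likely for any gene. A match describes letters in the window and is not a measured binding site.

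CHAC1 (ENSG00000128965, chr15:40952962-40956519, GRCh38) was a weakly expressed gene until Nutlin was given, and one of moderate level with it. In CPM (counts scaled to a common depth with TMM factors, comparable between libraries of a set), it stood at 3.32 and 3.15 in the 2 vehicle libraries of the Nutlin set. With Nutlin alone it stood at 72.4 and 60.5 CPM. With 5-Ph-IAA alone it stood at 4.11 and 4.80 CPM, and with both agents at 57.3 and 49.2 CPM. Every Nutlin library was thus far above every library without Nutlin, and the 4 libraries without Nutlin lay between 3.15 and 4.80 CPM. In such bulk libraries, more RNA per cell and more cells expressing a gene cannot be told apart.

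The ratio of group means was 20.5 for Nutlin over vehicle and 11.9 for both agents over 5-Ph-IAA alone. Taken library by library, the 4 ratios ran from 18.2 to 23.0 without 5-Ph-IAA and from 10.2 to 13.9 with it. The fitted log2 fold changes were 4.35 ± 0.17 (SE) and 3.58 ± 0.16. Of 13033 genes with a mean log2 CPM of at least 1, CHAC1 ranked first in both contrasts. The next gene was DDIT3 at 3.34 without 5-Ph-IAA and SLC7A11-AS1 at 3.30 with it. These ranks restate how the gene was chosen.

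5-Ph-IAA moved the CHAC1 values in opposite directions in the 2 Nutlin states. It stood 1.38 times the vehicle mean without Nutlin (log2 0.45 ± 0.20 SE) and 0.801 times the Nutlin mean with it (log2 -0.32 ± 0.13). The 2 libraries given both agents lay below both Nutlin libraries, and the 2 given 5-Ph-IAA alone lay above both vehicle libraries. The difference between the 2 Nutlin responses was -0.77 ± 0.24 on the log2 scale. It is a description, because the same libraries chose the gene.

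The time-course set, which held no Nutlin, had no part in choosing CHAC1 and gave a test. CHAC1 stood at 2.87 and 3.86 CPM in vehicle, 5.83 and 3.58 CPM at 3 h, and 1.70 and 4.11 CPM at 12 h. The 3 groups overlapped, and the 12 h value of 4.11 CPM rests on 15 counts in the shallow library. CHAC1 did not pass at 3 h (log2 0.48 ± 0.42, adjusted p = 0.926) or at 12 h (log2 -0.42 ± 0.47, adjusted p = 0.655) by edgeR's quasi-likelihood test. The 95% interval ran from -0.42 to 1.39 at 3 h and from -1.45 to 0.60 at 12 h, so changes of over 2-fold were within it at both times. The direction at 12 h turned to 0.30 without the first 12 h library.

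**Figure D1:**
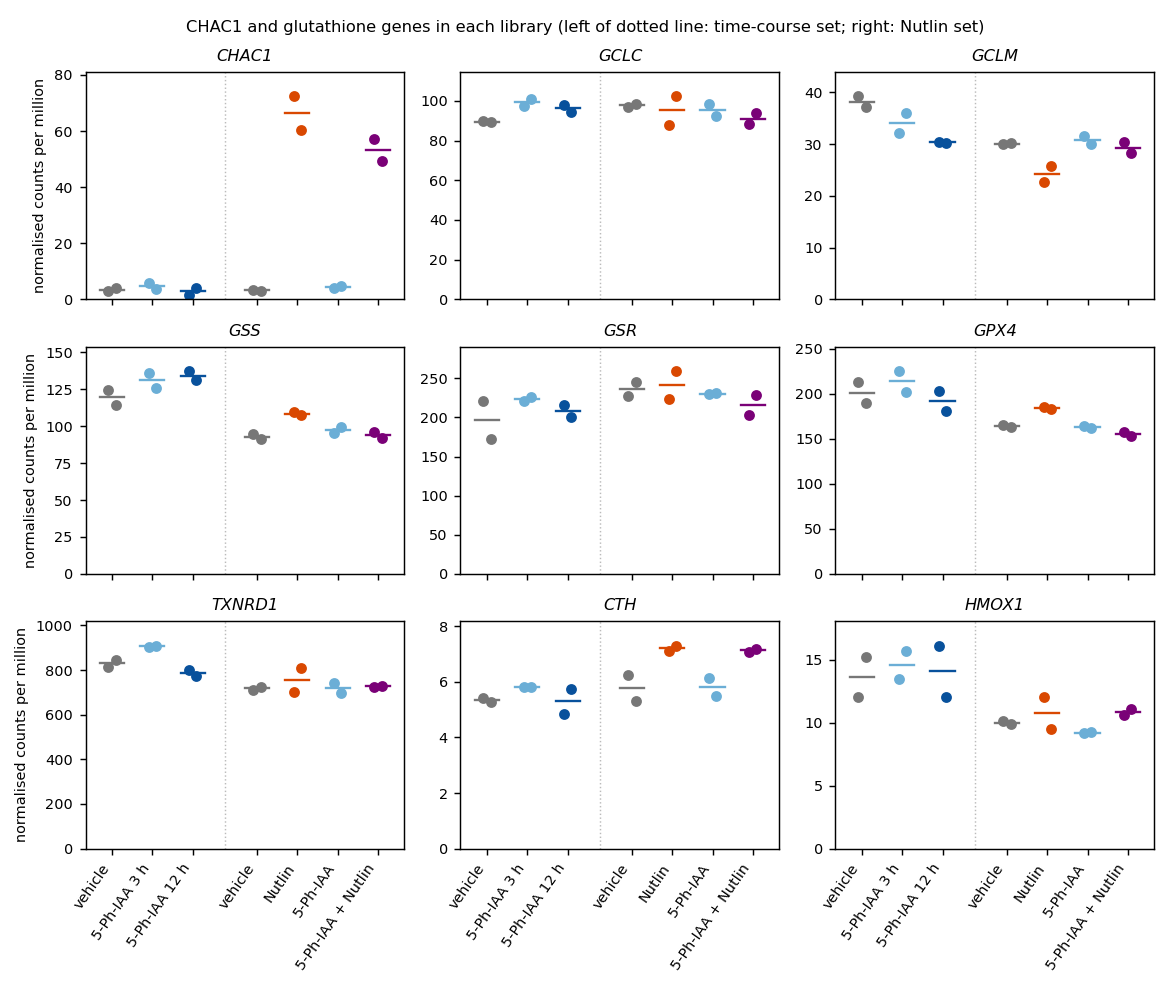
CPM of each of the 9 measured genes (y axis, linear, from 0) in every library (points) by group (x axis), with the group mean as a line; the dotted line divides the time-course set from the Nutlin set. CHAC1 is at 49.2 to 72.4 CPM in the 4 Nutlin libraries and at 1.70 to 5.83 CPM in the other 10, while GCLC stays at 88.1 to 102 CPM and GCLM at 22.6 to 39.2 CPM in all 14.

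CHAC2, a constitutively expressed paralog that also cleaves glutathione, did not pass with Nutlin. It stood at 19.9 and 15.7 CPM in vehicle and at 11.4 and 18.4 CPM with Nutlin, with a log2 change of -0.25 ± 0.25 (adjusted p = 0.766, edgeR). Per unit length, CHAC1 was at 0.154 ± 0.019 (SD, n = 2) of the CHAC2 level in vehicle cells of the Nutlin set and at 4.26 ± 2.05 with Nutlin. The latter was 5.71 in the first Nutlin library, where CHAC1 was at 40.9 TPM and CHAC2 at 7.16 TPM, and 2.81 in the second, where they were at 29.03 and 10.33 TPM. With both agents the ratio was 2.79 ± 0.19, and without Nutlin it stayed between 0.0732 and 0.276 in all 10 libraries. The more abundant of the 2 cyclotransferase transcripts was therefore CHAC2 in all 10 libraries without Nutlin and CHAC1 in all 4 with it.

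On the TPM scale, which allows genes to be compared, the order of the members in vehicle cells of the Nutlin set began with TXNRD1 at 185 ± 23.5 TPM (SD, n = 2) and GPX4 at 183 ± 20.9 TPM, which overlapped. GSR followed at 62.9 ± 13.5 TPM, then GCLC at 44.6 ± 8.44 TPM and GSS at 39.6 ± 3.81 TPM, which overlapped. GCLM stood at 12.98 ± 3.44 TPM, HMOX1 at 5.27 ± 0.60 TPM, CTH at 2.22 ± 0.26 TPM and CHAC1 last at 1.66 ± 0.14 TPM. With Nutlin, CHAC1 stood at 34.96 ± 8.39 TPM, in place 6 between GCLC at 45.0 ± 2.63 TPM and GCLM at 10.6 ± 1.60 TPM, and overlapped neither. It took the same place with both agents, at 29.8 ± 1.15 TPM. In vehicle cells of the time-course set GPX4 was first at 230 ± 14.6 TPM, above TXNRD1 without overlap, and CHAC1 was last at 1.98 ± 0.36 TPM, where it overlapped CTH. The CHAC1 level was 0.757 ± 0.071 of the GSS level with Nutlin against 0.0419 ± 0.0005 in vehicle cells.

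**Figure D2:**
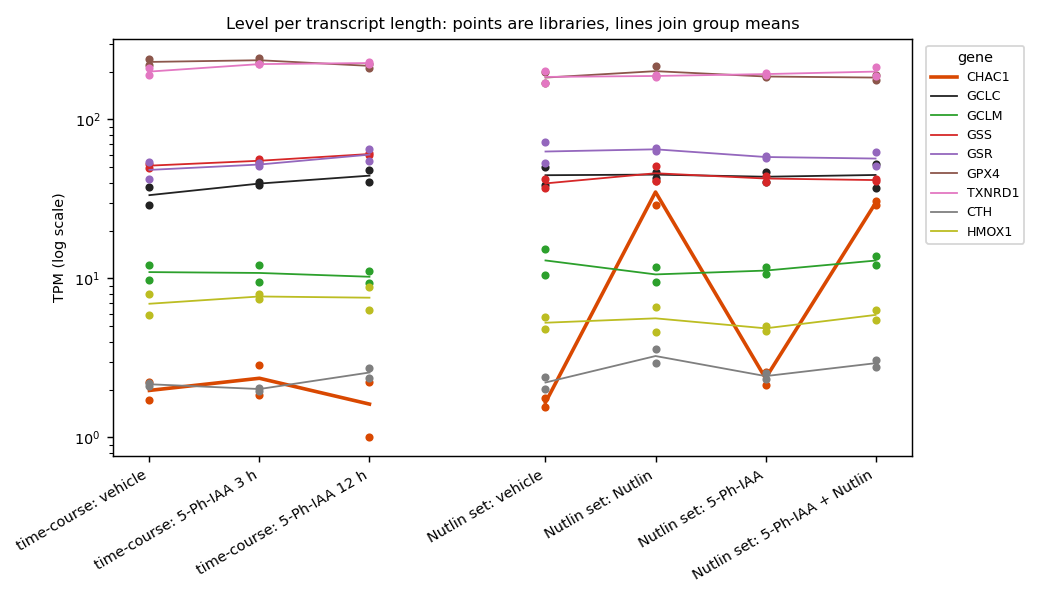
TPM (y axis, log scale) of 9 members in the 7 groups (x axis), with each library as a point and lines joining group means. CHAC1 is at 1.62 to 2.36 TPM in the 5 groups without Nutlin and at 34.96 and 29.8 TPM in the 2 groups with it, where it lies between GCLC and GCLM.

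The genes of glutathione synthesis were not called with Nutlin. None of the 8 other tested members passed with Nutlin in cells without 5-Ph-IAA, where 0.464% of all tested genes passed (0.394% higher, 0.0696% lower). None passed with Nutlin in cells given 5-Ph-IAA, where 0.388% passed (0.342% higher, 0.0464% lower). None passed when the Nutlin effect was averaged over both arms, where 1.44% passed. The same 3 counts of 0 were obtained with DESeq2, and 2, 0 and 2 of the 8 members were under an unadjusted p of 0.05 in edgeR. The median log2 change of the 8 members was 0.09 without and -0.06 with 5-Ph-IAA, against 0.00 and 0.00 for all tested genes. Counts with these library sizes (16794 genes) were simulated for the first of these comparisons. In them, 78.4% of genes changed by 2 log2 units and 56.1% of those changed by 1 were recovered. Changes under 1 log2 unit, such as those of the 8 members, were not simulated.

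GCLC (ENSG00000001084, chr6:53497341-53616970), the catalytic subunit, stood at 97.1 and 98.7 CPM in vehicle and 88.1 and 102 CPM with Nutlin. With 5-Ph-IAA it stood at 98.6 and 92.7 CPM, and with both agents at 88.2 and 93.9 CPM. The Nutlin libraries overlapped those without Nutlin in both arms. Its log2 change with Nutlin was -0.04 (95% interval -0.26 to 0.18, adjusted p = 0.923) without 5-Ph-IAA and -0.07 (-0.29 to 0.15, adjusted p = 0.937) with it. GENCODE 29 places AL033397.2 on the opposite strand of GCLC, and whether the counting used strand is not stated.

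GCLM (ENSG00000023909, chr1:93885205-93909456), the modifier subunit, stood at 29.99 and 30.2 CPM in vehicle and at 22.6 and 25.8 CPM with Nutlin. Both Nutlin libraries were below both vehicle libraries, with a log2 change of -0.31 ± 0.11 (95% interval -0.56 to -0.06). It did not pass (unadjusted p = 0.0212, adjusted p = 0.382, edgeR). Cells given 5-Ph-IAA had 31.6 and 29.9 CPM without Nutlin and 30.3 and 28.3 CPM with it, which overlapped, and the log2 change was -0.07 (-0.32 to 0.18, adjusted p = 0.944). The intervals in both arms lay below a 2-fold rise.

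GSS (ENSG00000100983, chr20:34928433-34956027), which adds glycine, stood at 94.4 and 91.1 CPM in vehicle and 109 and 107 CPM with Nutlin. The groups did not overlap, and the log2 change was 0.23 ± 0.086 (95% interval 0.03 to 0.42, unadjusted p = 0.0254, adjusted p = 0.400). With 5-Ph-IAA the values were 95.3 and 99.7 CPM without Nutlin and 95.8 and 91.9 CPM with it. These overlapped, with a log2 change of -0.05 (-0.25 to 0.14, adjusted p = 0.944). The ratio of GCLC to GCLM in TPM was 3.74 ± 0.55 (SD) over the 14 libraries, with a range of 2.97 to 4.55.

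The genes that recycle and use glutathione also did not pass with Nutlin. GSR stood at 227 and 246 CPM in vehicle, 224 and 259 CPM with Nutlin, 230 and 231 CPM with 5-Ph-IAA, and 204 and 228 CPM with both. Its log2 change with Nutlin was 0.03 (95% interval -0.20 to 0.26) without 5-Ph-IAA and -0.09 (-0.32 to 0.14) with it. GPX4 (ENSG00000167468, chr19:1103926-1106791), the lipid peroxide reductase that guards against ferroptosis, stood at 165 and 163 CPM in vehicle and 186 and 183 CPM with Nutlin. The corresponding values with 5-Ph-IAA were 164 and 161 CPM without and 158 and 154 CPM with Nutlin. Both Nutlin libraries were above both vehicle libraries, and both libraries given both agents were below those given 5-Ph-IAA alone. The log2 changes were 0.17 ± 0.081 (adjusted p = 0.508) and -0.06 ± 0.081 (adjusted p = 0.928).

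TXNRD1 (ENSG00000198431, chr12:104215779-104350305), the cytosolic thioredoxin reductase, stood at 711 and 726 CPM in vehicle and 703 and 809 CPM with Nutlin. Cells given 5-Ph-IAA had 741 and 696 CPM, and cells given both agents had 726 and 730 CPM. The Nutlin libraries overlapped those without Nutlin in both arms, with log2 changes of 0.07 (95% interval -0.14 to 0.28) and 0.02 (-0.19 to 0.23). AC089983.1 lies on the opposite strand of TXNRD1. HMOX1 (ENSG00000100292, chr22:35380361-35394214) stood at 10.1 and 9.89 CPM in vehicle, 12.0 and 9.50 CPM with Nutlin, 9.15 and 9.30 CPM with 5-Ph-IAA, and 10.6 and 11.1 CPM with both. The groups overlapped without 5-Ph-IAA and not with it. Its log2 changes were 0.10 ± 0.16 (adjusted p = 0.868) and 0.23 ± 0.16 (adjusted p = 0.815).

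Of the genes that make cysteine, CTH (ENSG00000116761, chr1:70411218-70439851), the cystathionine gamma-lyase, stood at 6.26 and 5.32 CPM in vehicle and 7.10 and 7.31 CPM with Nutlin. With 5-Ph-IAA it stood at 6.14 and 5.49 CPM, and with both agents at 7.09 and 7.20 CPM. All 4 Nutlin libraries were above all 4 libraries without Nutlin. The log2 change was 0.31 ± 0.18 (adjusted p = 0.581) in one arm and 0.30 ± 0.18 (adjusted p = 0.779) in the other. Averaged over both arms it was 0.30 ± 0.13 (95% interval 0.02 to 0.59, unadjusted p = 0.0406, adjusted p = 0.339). The gene did not pass in any of these comparisons.

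CBS (ENSG00000160200, chr21:43053191-43076943), the cystathionine beta-synthase, was listed at 0 in 12 of 14 libraries. It had 7 expected counts in the second vehicle library of the time-course set and 3 in the first vehicle library of the Nutlin set. By counting error alone, a count of 0 allows up to 3 counts, or 0.0854 to 0.849 CPM depending on the library. CBS has a near-identical copy, CBSL (ENSG00000274276, chr21:6444869-6468040), which was listed at 0 in all 14 libraries. How reads that fit both copies were counted is not stated, so the low values do not show that CBS was silent. U2AF1, a splicing factor gene with a copy in the same duplicated stretch and picked after its values were seen, stood at 22.9 to 48.1 TPM, and its copy at 0 to 11.4 TPM.

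**Figure D3:**
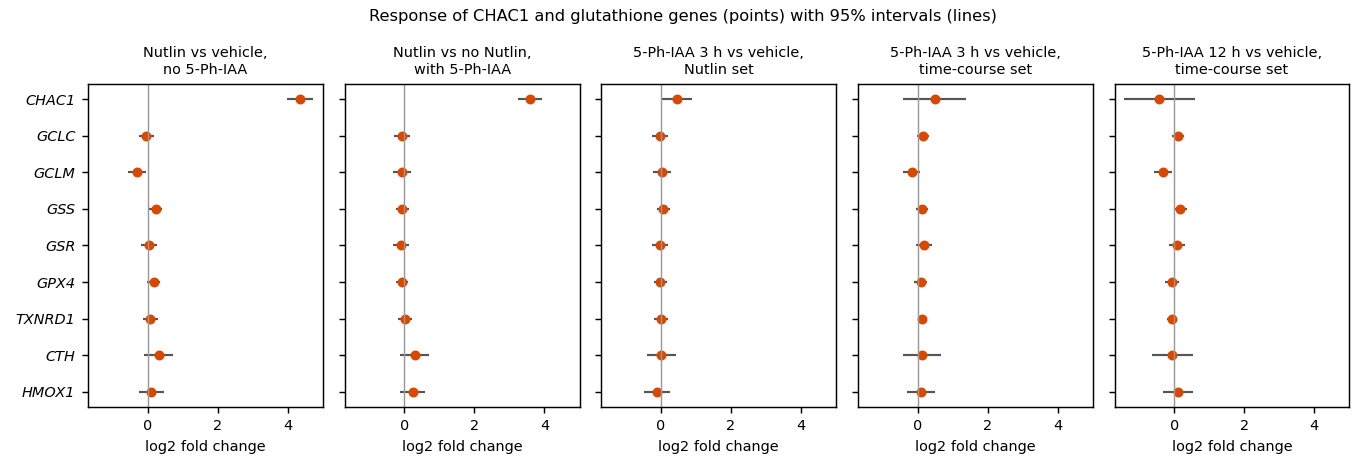
Log2 fold change (x axis) with its 95% interval (lines) for 9 members (y axis) in the Nutlin, 5-Ph-IAA and time-course comparisons. CHAC1 stands at 4.35 and 3.58 with Nutlin, outside the range of -0.31 to 0.31 that holds the other 8 genes in those 2 panels.

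Of the 6 amino acid transporter genes in the cysteine and methionine supply list, 3 rose with Nutlin, among them both subunits of the transporter of cystine, the dimer of cysteine. SLC7A11, the exchanger subunit of the cystine transporter xCT, rose from 29.4 and 33.3 CPM to 129 and 136 CPM, a log2 change of 2.08 ± 0.10 (adjusted p = 6.05e-06). With 5-Ph-IAA it rose from 37.5 and 38.8 CPM to 152 and 143 CPM, a change of 1.95 ± 0.10 (adjusted p = 9.7e-06). SLC3A2, the heavy chain of xCT and of other amino acid transporters, rose from 270 and 242 CPM to 440 and 451 CPM, a change of 0.80 ± 0.091 (adjusted p = 0.00352). SLC1A4, a neutral amino acid transporter, rose from 2.67 and 3.97 CPM to 10.6 and 12.3 CPM, a change of 1.79 ± 0.25 (adjusted p = 0.0143). With 5-Ph-IAA the changes were 0.60 ± 0.091 for SLC3A2 (adjusted p = 0.0255) and 1.84 ± 0.26 for SLC1A4 (adjusted p = 0.0179). Each Nutlin library was above each library without Nutlin for all 3 genes.

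These 3 were the genes that passed among the 16 of the cysteine and methionine supply list, in both arms, and none was lower. The other 3 transporter genes did not pass: SLC1A1, a glutamate and cysteine transporter, stood at log2 -0.04 without and -0.19 with 5-Ph-IAA, SLC1A5, a glutamine transporter, at 0.35 and 0.33, and SLC7A5, a transporter of large neutral amino acids, at 0.38 and 0.61. Of all tested genes, 0.394% rose in the first arm and 0.342% in the second. The list's median log2 change was 0.15 without and 0.12 with 5-Ph-IAA. SLC7A11-AS1 is annotated on the opposite strand of SLC7A11, so reads of the 2 genes cannot be told apart if strand was not used. Leaving out 1 library at a time, between 1 and 5 genes of the list passed as higher in either arm. SLC3A2 lost its call without the second vehicle library in cells without 5-Ph-IAA (adjusted p = 0.0956). In cells given 5-Ph-IAA it lost it without either vehicle library (0.0631 and 0.0594) and without any of the 4 libraries compared (0.173 to 0.456). SLC1A4 lost its call without either vehicle library in the first arm (0.218 and 0.0658) and without any of the 4 libraries compared in the second (0.0772 to 0.325). Each of these calls kept its direction.

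The other genes that break down or carry glutathione were not called with Nutlin. None of 11 tested genes of breakdown and transport passed in either arm (median log2 change 0.00 without and 0.10 with 5-Ph-IAA). None of 17 peroxidases, transferases and glutaredoxins passed in either arm (medians 0.11 and -0.01). GPX8, an endoplasmic reticulum peroxidase, passed when the arms were averaged, at 0.52 ± 0.085 (adjusted p = 0.0151), with 44.7 and 44.5 CPM in vehicle and 59.6 and 76.5 CPM with Nutlin. Its call was lost without either vehicle library, either 5-Ph-IAA library or either library given both agents (adjusted p = 0.0983 to 0.119). None of 13 genes of the thioredoxin system passed in either arm (medians 0.13 and -0.08).

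The lists named for stress regulators gave different counts. Each gene was counted in 1 list only, so a gene that answers to more than 1 regulator enters a single count. The rise of SLC7A11, counted with the cysteine supply genes, thus enters neither the NRF2 nor the ATF4 count. The lists were chosen with earlier results of these data known, and which regulator moved a gene was not tested. None of 27 NRF2 regulators and targets passed in either arm, with medians of 0.06 and -0.02. Of 24 tested genes of the ATF4 amino acid and stress response, 15 rose and none fell without 5-Ph-IAA (median 0.85), and 14 rose and none fell with it (median 0.70), where 0.394% and 0.342% of all tested genes rose. DDIT3 (CHOP) rose by 3.34 ± 0.12 and 2.83 ± 0.12 in the 2 arms, DDIT4, an inhibitor of mTORC1, by 3.30 ± 0.14 and 2.87 ± 0.14, and HERPUD1, an endoplasmic reticulum stress gene, by 1.89 ± 0.088 and 1.84 ± 0.088. Leaving out 1 library at a time, 10 to 20 genes of this list rose in the first arm and 8 to 18 in the second. The lowest counts, 10 and 8, came without the first vehicle library and without the first library of either 5-Ph-IAA group, and the highest, 20 and 18, without the first Nutlin library. Of 10 p53 targets in redox and iron metabolism, listed with MDM2 and CDKN1A, CDKN1A and GDF15 rose in both arms (medians 0.47 and 0.43) and none fell, beside the same shares of all genes. When the arms were averaged, MDM2, SESN1 and TP53INP1 passed as higher too, giving 5 of the 10, where 1.44% of all tested genes passed. MDM2 stood at log2 0.54 without and 0.57 with 5-Ph-IAA. With DESeq2, 4 of the 10 p53 genes rose without 5-Ph-IAA, and with no low-count filter 5 rose in each arm. None of 10 ferroptosis genes passed in either arm (medians 0.02 and -0.01). When the arms were averaged, PTGS2 of the ferroptosis list and MAFF of the NRF2 list passed as higher, as did 18 of the 24 ATF4 genes. PTGS2 stood at log2 1.57 without and 1.40 with 5-Ph-IAA, from 1.76 and 1.65 CPM in vehicle to 5.15 and 4.99 CPM with Nutlin. MAFF stood at 0.39 and 0.75 in the 2 arms.

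**Figure D4:**
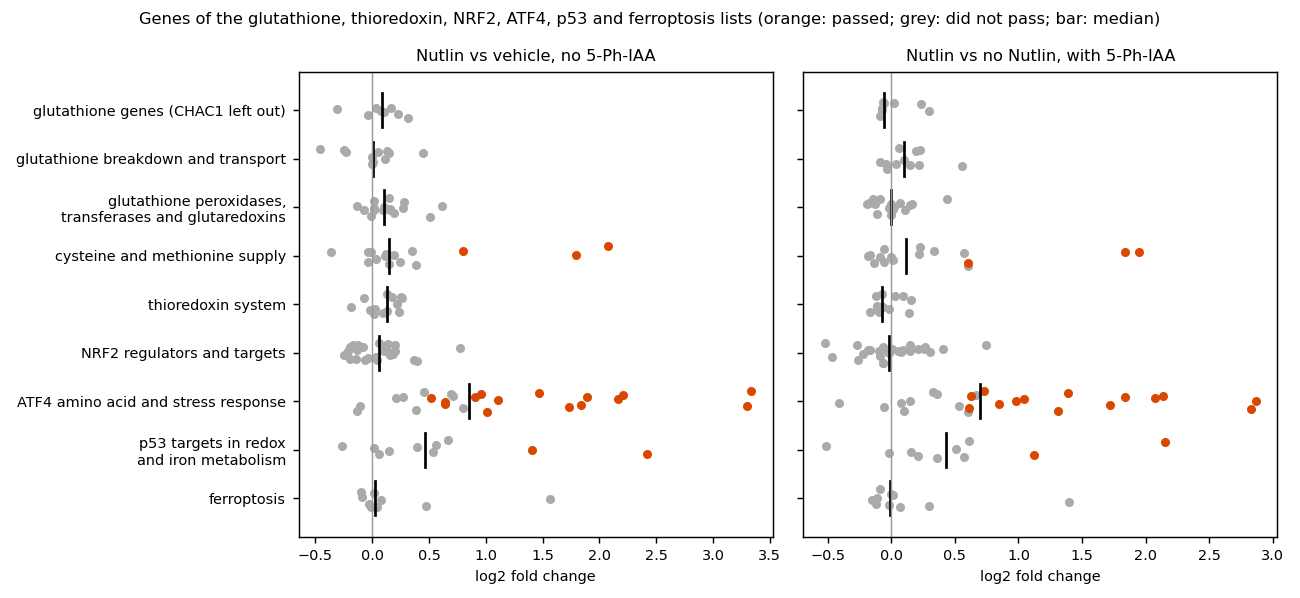
Log2 fold change with Nutlin (x axis) of each tested gene (points) in the glutathione, cysteine supply, thioredoxin, NRF2, ATF4, p53 and ferroptosis lists (y axis), without and with 5-Ph-IAA; orange points passed and the bar is the list's median. Orange points lie in the cysteine supply list (3 in each panel), the ATF4 list (15 and 14) and the p53 list (2 and 2).

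Across the 14 libraries, with each set centred on its own vehicle mean, the genes whose log2 CPM was most like that of CHAC1 were XBP1 (Pearson r = 0.989), CDKN1A (0.988), ASNS (0.986), DDIT3 (0.985) and MT1X (0.981), out of 11751 genes. These values are set by the gap between the 4 libraries with Nutlin and the 10 without, which all these genes share. Among the members, CTH was most like CHAC1 (r = 0.885). GCLC stood at -0.58, GSR at -0.38, GCLM at -0.24, TXNRD1 at 0.26, GSS at 0.24, GPX4 at 0.23 and HMOX1 at 0.23. These values too rest on the libraries that chose CHAC1, and CTH did not pass with Nutlin. The 5 genes most like GCLM were PPP4R4 (0.899), NCK1, IPO7, CAMSAP2 and BRWD1, and those most like HMOX1 were POLL (0.861), ZNF786, FAM229B, CDC42BPG and FBL. None of these 10 genes is in the lists used here.

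Adding 5-Ph-IAA in the Nutlin set gave no call among the members or elsewhere. No gene passed for 5-Ph-IAA without Nutlin (0% of 17251, edgeR), where 245 genes were under an unadjusted p of 0.05 and DESeq2 called 1. None passed for 5-Ph-IAA on top of Nutlin (0%), where 1404 were under 0.05 and DESeq2 called 17. None passed for the interaction (0%), where 623 were under 0.05 and DESeq2 called 1. Of the 8 tested members, none was under 0.05 in the first, and GCLM (log2 0.27 ± 0.11), GSS (-0.21 ± 0.086) and GPX4 (-0.24 ± 0.081) were in the second, each with an adjusted p of 0.604. In the second comparison GSR and GPX4 passed without the first Nutlin library, at -0.27 (adjusted p = 0.0389) and -0.24 (adjusted p = 0.0409).

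In the time-course set, none of the 9 tested members passed at 3 h, where 0.0682% of all genes did. Of the 9, TXNRD1 alone was under an unadjusted p of 0.05 (0.13 ± 0.053, adjusted p = 0.758), 1228 genes in all were, and DESeq2 called 51 genes and no member. None of the 9 passed at 12 h, where 11.4% of all genes did (3.39% higher, 7.97% lower), and DESeq2 also called none of them. The median of the 9 was 0.13 at 3 h and -0.05 at 12 h, against -0.01 and 0.00 for all tested genes. None of the synthesis genes passed. Both libraries of each treated group lay on 1 side of both vehicle libraries, higher for GCLC and GSS and lower for GCLM. Both treated groups were set against the same vehicle libraries, and the share of all genes that separated in this way was not counted. GCLC stood at 89.9 and 89.4 CPM in vehicle, 97.7 and 101 CPM at 3 h and 97.9 and 94.5 CPM at 12 h, with log2 changes of 0.15 ± 0.080 and 0.11 ± 0.084. GSS stood at 124 and 114 CPM, then 136 and 126 CPM, then 137 and 131 CPM, with changes of 0.13 ± 0.081 and 0.17 ± 0.085. GCLM was lower at 12 h (30.5 and 30.1 CPM) than in vehicle (39.2 and 37.1 CPM) in every library, with 32.1 and 36.0 CPM at 3 h. Its log2 change at 12 h was -0.33 ± 0.12 (unadjusted p = 0.0178, adjusted p = 0.104), which did not pass.

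TXNRD1 fell between 3 h and 12 h, from 903 and 910 CPM to 800 and 773 CPM, a log2 change of -0.20 ± 0.054 (adjusted p = 0.037, edgeR). It was 1 of 9 members to pass in that comparison, in which 8.14% of all tested genes passed. The 12 h values were close to the vehicle values of 816 and 846 CPM, and the change from vehicle was -0.08 ± 0.054 (adjusted p = 0.414). The call was lost with DESeq2's size factors in edgeR (adjusted p = 0.0506) and when any 1 of the 3 h or 12 h libraries was left out. GSR stood at 222 and 172 CPM in vehicle, 221 and 226 CPM at 3 h, and 216 and 200 CPM at 12 h. Its 2 vehicle libraries stood further apart than the 2 of any treated group, and without the first of them it passed at 3 h (0.40, adjusted p = 0.0194) and at 12 h (0.30, adjusted p = 0.0294).

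The other members gave no call in this set. GPX4 stood at 213 and 189 CPM in vehicle, 225 and 202 CPM at 3 h and 203 and 181 CPM at 12 h. CTH stood at 5.28 and 5.44 CPM in vehicle, between 5.80 and 5.81 CPM at 3 h and at 4.84 and 5.75 CPM at 12 h. HMOX1 stood at 12.1 and 15.3 CPM, then 13.5 and 15.7 CPM, then 16.1 and 12.1 CPM. Their 12 h log2 changes were -0.05 ± 0.091, -0.05 ± 0.27 and 0.11 ± 0.20, and all 3 genes overlapped vehicle at 12 h.

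Around the members, some genes that use thiols fell at 12 h. Of 18 tested peroxidases, transferases and glutaredoxins, 4 fell and none rose: the microsomal glutathione transferases MGST1 (-0.79 ± 0.11, adjusted p = 0.000988) and MGST3 (-0.40 ± 0.10), the iron-sulphur glutaredoxin GLRX3 (-0.69 ± 0.11) and GPX8 (-0.42 ± 0.10). MGST1 stood at 66.9 and 64.4 CPM in vehicle and 37.8 and 38.4 CPM at 12 h. Of 13 genes of the thioredoxin system, the mitochondrial peroxiredoxin PRDX3 (-0.63 ± 0.068, adjusted p = 0.000367) and thioredoxin itself, TXN (-0.41 ± 0.068), fell and none rose. Of 11 genes of breakdown and transport, ABCC4 (-0.49 ± 0.085), an exporter of organic anions, and SLC25A40 (-0.66 ± 0.19), a mitochondrial carrier, fell. CHAC2 did not pass (-0.43 ± 0.15, adjusted p = 0.0932). These shares stand beside the 7.97% of all tested genes that fell.

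Of 16 cysteine and methionine supply genes, SLC7A5 rose and MAT2B (-0.55 ± 0.085) fell, and of 27 NRF2 genes, FTL (0.32 ± 0.068) rose and UGDH (-0.49 ± 0.13) fell. With 3.39% of all tested genes higher and 7.97% lower at 12 h, 1 gene each way in these lists is near the share over all genes. Of 25 ATF4 genes ATF4 itself rose and CEBPG and MTHFD2 fell, of 10 p53 genes MDM2 (-0.39 ± 0.066), SESN1 (-0.63 ± 0.13) and TP53INP1 fell, and of 10 ferroptosis genes NCOA4 (-0.29 ± 0.071) and TFRC (-0.22 ± 0.063) fell. The medians of these 8 lists lay between -0.25 and 0.12. Left out 1 library at a time, the number of falling peroxidases, transferases and glutaredoxins ran from 1 to 4, with the lowest count without the first 12 h library, which leaves only the shallow one. Without it FTL, GLRX3, GPX8, MGST3, NCOA4, SESN1, SLC25A40, TFRC and UGDH lost their calls (adjusted p = 0.0515 to 0.362). Without the shallow second 12 h library SLC25A40, TFRC and UGDH lost theirs (0.0892, 0.165 and 0.0869). NCOA4 and TFRC lost theirs without the first vehicle library (0.0912 and 0.291), and SESN1, SLC25A40 and UGDH without the second (0.0519, 0.282 and 0.181). SLC25A40 also lost its call with DESeq2 (0.0544) and with DESeq2's size factors in edgeR (0.0509), and TFRC with those size factors (0.0668). All of these kept their direction.

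RSEM gives each gene a length weighted by the share of its isoforms, a readout that did not enter the choice of members. The CHAC1 length was 1511 and 1520 bases in vehicle and 1432 and 1494 bases with Nutlin. It was 1512 and 1520 bases with 5-Ph-IAA and 1492 and 1469 bases with both agents, so all 4 Nutlin libraries lay below the other 4 of the set. In the time-course set, where CHAC1 had 15 to 199 counts, it ran from 1306 to 1520 bases, which covers the range seen with Nutlin. The GCLM length varied most in proportion among the tested members, from 1541 to 2794 bases, so its TPM values carry more of this estimate than its CPM values do. Neither length was tested.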

How the data were processed

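RNA-seq was measured in 14 libraries of 7 groups. Per the file headers, the authors deposited RSEM gene tables with expected counts, TPM and FPKM values, gene length and effective length for 78686 identifiers; FPKM was not used here. The submitters' processing notes name STAR 2.7.10b, RSEM, DESeq2 1.48.1 and hg38, without the role of each. The annotation release and the use of strand in counting are not given in the sources used here. Symbols from the reference table matched 42165 identifiers (53.6%), and positions are from GENCODE 29. The 10 genes and all lists, taken from general knowledge, were chosen with earlier results of these data known, so they are not independent evidence.

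Expected counts were rounded and each set was fitted alone with edgeR 4.0.16 (R 4.3.3): TMM factors, filterByExpr (minimum count 10, minimum total 15), 1 coefficient per group, quasi-likelihood F tests, two-sided p-values adjusted by Benjamini-Hochberg over all tested genes, threshold 0.05. The biological coefficient of variation was 0.176 for the time course and 0.114 for the Nutlin libraries (3 and 4 residual degrees of freedom). An SE is the log2 change divided by the square root of F. Log CPM used a prior count of 2. Each list names up to 4 genes with the smallest p among those that passed; SLC1A1, SLC1A5, SLC7A5, TP53INP1, ATF4, CEBPG, MTHFD2 and U2AF1 were named beyond this rule after their values were seen. No single-gene permutation test with 2 libraries a group could pass the threshold. Groups of 2 libraries often do not overlap for unchanged genes, and the share of all genes without overlap was not counted. Alternatives were DESeq2 1.42.0, its size factors within edgeR, no low-count filter, a replicate block, each library left out, and CBS summed with CBSL. The procedure was tested on simulated data. At 12 h against vehicle, 59.1% of genes changed by 2 log2 units and 43.0% of those changed by 1 were recovered. The recovered genes numbered 55 and 40, beside 17 false calls, a larger share of all calls than the threshold of 0.05 aims at. For Nutlin without 5-Ph-IAA they numbered 76 and 55, beside 9 false calls. Replicate numbers did not pair the libraries. Between replicates of every group, counts differed by more than sampling noise, so no 2 libraries were merged. The 2 libraries with Nutlin alone differed most, at a chi-square per degree of freedom of 19.6. In the other groups of that set it was 3.11 to 6.21.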

Additional observations from a re-analysis of the deposited data

Results flagged for a closer look

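In each of these cases every library of one pair of groups moved one way and every library of the other pair the opposite way. The cases were picked for this pattern, and the share of all genes that show it was not counted. For CHAC1, 5-Ph-IAA against its control gave a log2 change of 0.452 without Nutlin and -0.318 with it; this difference was not tested, because the gene was chosen on these libraries. GSS gave 0.071 without Nutlin and -0.209 with it under the same contrast. GPX4 gave 0.165 with Nutlin in cells without 5-Ph-IAA and -0.063 in cells given it.

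Among the other listed genes, FTL gave 0.201 and -0.096 for Nutlin without and with 5-Ph-IAA, and 0.07 and -0.227 for 5-Ph-IAA without and with Nutlin. DDIT3 gave 0.173 and -0.334, and CDKN1A 0.046 and -0.239, for 5-Ph-IAA without and with Nutlin. The interaction did not pass for GSS, GPX4, FTL, DDIT3 or CDKN1A (adjusted p = 0.989 for each, edgeR). GPX8 gave -0.255 for 3 h of 5-Ph-IAA in the time-course set and 0.092 for 5-Ph-IAA in the Nutlin set, and this difference between sets was not tested.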

How the results depend on the processing

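No other tested member passed with Nutlin in either arm under any alternative, including each library left out, and CHAC1 kept a log2 value of 4.22 to 4.48 without and 3.46 to 3.69 with 5-Ph-IAA when 1 library was left out. With 2 libraries a group and a 12 h library of 3535163 counts, depth limits the weak genes: the 95% interval at 12 h ran from -1.45 to 0.60 for CHAC1 and from -0.64 to 0.53 for CTH. The cause was not tested for any change of call below.

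The count of all genes that passed was 51 with DESeq2, 193 with no low-count filter and 45 with a replicate block at 3 h (13 as reported). It was 148 and 405 for Nutlin with DESeq2 and with no filter (80), 103 and 270 for Nutlin with 5-Ph-IAA (67), 324 and 635 for Nutlin averaged (249), 1 and 53 for 5-Ph-IAA, 17 and 136 for 5-Ph-IAA on Nutlin, and 1 and 57 for the interaction (0 for the last 3). With no filter it was 2909 at 12 h (2163) and 2448 for 12 h against 3 h (1551). With DESeq2's size factors no member passed for 12 h against 3 h. Of 60 calls of other named genes, 6 were lost with these size factors, 3 with DESeq2 and 0 with no filter. Of 48 list counts, 2, 6 and 9 moved by over 1.5 times under the same 3 settings, and 2 with the replicate block. Among these at 12 h, with DESeq2 3 NRF2 genes and 2 cysteine supply genes rose, with no filter 4 NRF2 genes rose and 4 ATF4 genes fell, with the block 3 NRF2 genes rose, and with the size factors 1 ferroptosis gene fell. With DESeq2 or the size factors, 1 gene of breakdown and transport fell. With Nutlin alone, 1 gene of the peroxidase list rose with DESeq2 and with no filter, and 1 ferroptosis gene rose in each arm and 1 NRF2 gene with 5-Ph-IAA with no filter. The replicate block changed no other count of all genes by over 1.5 times and no count of members, and it ended the SLC3A2 call with 5-Ph-IAA (adjusted p = 0.0544). The numbers do not pair the libraries: the differences in log2 CPM between replicates 1 and 2 correlated between groups at -0.089 to 0.047. Summing CBS and CBSL changed no count or call.

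With 1 library left out, the counts of genes ran from 23 to 283 at 3 h, 961 to 2446 at 12 h, 612 to 2315 for 12 h against 3 h, 25 to 2131 for Nutlin, 16 to 429 for Nutlin with 5-Ph-IAA, 84 to 1977 for Nutlin averaged, 0 to 1 for 5-Ph-IAA, 0 to 2490 for 5-Ph-IAA on Nutlin and 0 to 1035 for the interaction. The members that passed ran from 0 to 1 in each time-course comparison and from 0 to 2 for 5-Ph-IAA on Nutlin.

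Some members near 0 turned direction. With no low-count filter, HMOX1 was at -0.021 for 12 h against 3 h, and TXNRD1 at -0.0020 for 5-Ph-IAA. With 1 library left out, the log2 change at 3 h ran from -0.045 to 0.28 for HMOX1. At 12 h it ran from -0.98 to 0.30 for CHAC1, -0.14 to 0.056 for GPX4, -0.078 to 0.30 for GSR, -0.15 to 0.11 for CTH and -0.17 to 0.29 for HMOX1, and for 12 h against 3 h from -0.029 to 0.076 for GSS and -0.28 to 0.13 for HMOX1. With Nutlin it ran from -0.15 to 0.067 for GCLC, -0.080 to 0.14 for GSR, -0.034 to 0.17 for TXNRD1 and -0.071 to 0.26 for HMOX1, with 5-Ph-IAA present from -0.033 to 0.064 for TXNRD1, and averaged over both arms from -0.086 to 0.022 for GSR and -0.0081 to 0.10 for TXNRD1. With 5-Ph-IAA it ran from -0.081 to 0.013 for GCLC, -0.0088 to 0.075 for GCLM, -0.094 to 0.025 for GSR, -0.048 to 0.048 for TXNRD1 and -0.10 to 0.13 for CTH. For 5-Ph-IAA on Nutlin it ran from -0.17 to 0.048 for GCLC, -0.036 to 0.011 for CTH, -0.16 to 0.051 for TXNRD1 and -0.15 to 0.19 for HMOX1, and for the interaction from -0.14 to 0.082 for GCLC, -0.14 to 0.082 for CTH, -0.16 to 0.052 for TXNRD1 and -0.029 to 0.30 for HMOX1.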
